A study of Oryza sativa Japonica Group with 30 samples.

Results

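SNAC1 binding in the rice variety ZH11 was compared between drought stress and normal growth conditions over 21162 genomic intervals. These are all the intervals of the deposited table for the 2 conditions, out of 59311 listed in the 3 ChIP-Seq tables of the study. An interval is a stretch of the MSU 7.0 rice genome in which anti-SNAC1 ChIP fragments pile up, and each library has 1 signal value per interval. ZH11-D denotes wild-type (ZH11-WT) seedlings left without water from the 4-leaf stage until their leaves curled and yellowed, and ZH11-N denotes ZH11-WT seedlings of that stage kept under normal conditions. Each condition has 3 immunoprecipitated libraries. Neither carries a transgene, so the antibody, raised in rabbits against full-length SNAC1, reads the plant's own SNAC1 in both. The third ChIP group, SNAC1-N, is the well-watered SNAC1 overexpressor OE-19, whose transgene runs from a maize ubiquitin promoter. It is used below only for values set beside those of ZH11.

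The labels describe pots in which wild-type and transgenic plants grew side by side. The study describes the 3 libraries of a condition as independent replicates. Which plants or pots went into each is not given in the sources used here. Chromatin was taken from shoot tissue, a mixture of cell types. In such samples, SNAC1 binding in more cells and more binding per cell cannot be told apart. The files used here hold no values of the input libraries and no library from plants without SNAC1, so the specificity of the antibody was not tested.

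SNAC1 belongs to the NAC family, transcription factors found only in plants, which bind DNA through a conserved domain near the N terminus. SNAC1 was first known as a gene induced by water deficit, strongly in guard cells, and plants with more of it keep their stomata more closed and survive drought better. Stress-responsive NAC factors act together with abscisic acid, the hormone that rises when water is short. In ChIP-Seq, protein is fixed to DNA with formaldehyde, the chromatin is sheared, and the fragments held by the antibody are sequenced, so that a bound place in the genome gathers more reads.

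The transcript of the factor itself was read first. In the RNA-Seq libraries of the study, which are separate from the ChIP libraries, SNAC1 (LOC_Os03g60080, chromosome 3) had 329, 530 and 430 FPKM (fragments per kilobase of transcript, scaled to the mapped reads) in ZH11-D, against 27.2, 44.8 and 39.7 FPKM in ZH11-N. Every drought library lay far above every normal one. The log2FC (log2 fold change, ZH11-D minus ZH11-N) was 3.52 with a standard error of 0.253 (limma adjusted p = 3.92e-06 over 19979 features). The exact permutation test gave p = 0.1, the smallest that 3 libraries against 3 allow. SNAC1-N had 847 ± 129 FPKM (SD, n = 3), against 37.2 ± 9.06 FPKM in ZH11-N (SD, n = 3). The amount of SNAC1 protein was not analysed here.

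The deposited ChIP signal is a whole count, never below 1, multiplied by 1 fixed value per library. Summed over the intervals, the counts came to 2426942, 5494104 and 2691430 in ZH11-D1, D2 and D3, and to 2212049, 1869015 and 3361183 in ZH11-N1, N2 and N3. The median interval held 64 to 155 counts in ZH11-D and 38 to 91 in ZH11-N. After the authors' scaling the median signal was 60.0, 94.7 and 69.7 in ZH11-D, against 56.1, 38.0 and 71.0 in ZH11-N. The ranges overlapped, and the exact permutation test gave p = 0.3. ZH11-N2 stood apart from the other libraries: 16.4% of its intervals were at the floor of 1 count, against 1.47% to 7.22% in the other 5. A set of 40 intervals, each holding over 0.1% of the counts of some library, took 19.1% of the counts of ZH11-N2 and 2.60% to 5.54% of those of the others. Taken over the intervals, Spearman's rho was 0.768 to 0.796 between ZH11-D libraries and 0.620 to 0.715 between ZH11-N libraries. It was 0.549 to 0.735 between libraries of different conditions, and all these values are across intervals of the same libraries.

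Under drought the signal was higher at 41 intervals and lower at 0 (limma on the log2 signal, adjusted p under 0.05 over all 21162 intervals). The 41 are 0.194% of the intervals tested. Their mean signal ran between 257 and 2441 with a median of 436 in ZH11-D, against 34.1 to 509 with a median of 92.7 in ZH11-N. Their log2FC ranged between 1.63 and 4.04 with a median of 2.16, while the median of all intervals was 0.53. At all 41, each ZH11-D library was above each ZH11-N library, which also held at 23% of all intervals. The choice by p favours such a separation. All 6 libraries were above the floor at the 41, as they were at 15377 of all 21162 intervals. At an unadjusted p under 0.05 on the deposited scale, limma had 3124 of the 21162 intervals higher and 277 lower in ZH11-D. With the libraries scaled by their median ratio it had 1920 higher and 1519 lower, so this imbalance depends on the scale used. For the lower direction edgeR gave 0 calls and DESeq2 35, both with the deposited scaling. Scaling the libraries by their median ratio gave 65 higher (0.307%) and 42 lower (0.198%) intervals, 25 of them among the 41. The number of calls rests on single libraries: it was 0 by limma without ZH11-D1, ZH11-D3 or ZH11-N1 (2459, 1696 and 3035 intervals higher in ZH11-D at an unadjusted p under 0.05) and 1 without ZH11-D2, but 83 without ZH11-N2 and 395 without ZH11-N3. It rests on the test as well, since edgeR called 2 intervals and limma without a variance trend 52, with 0 of the 41 among either.

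**Figure D1:**
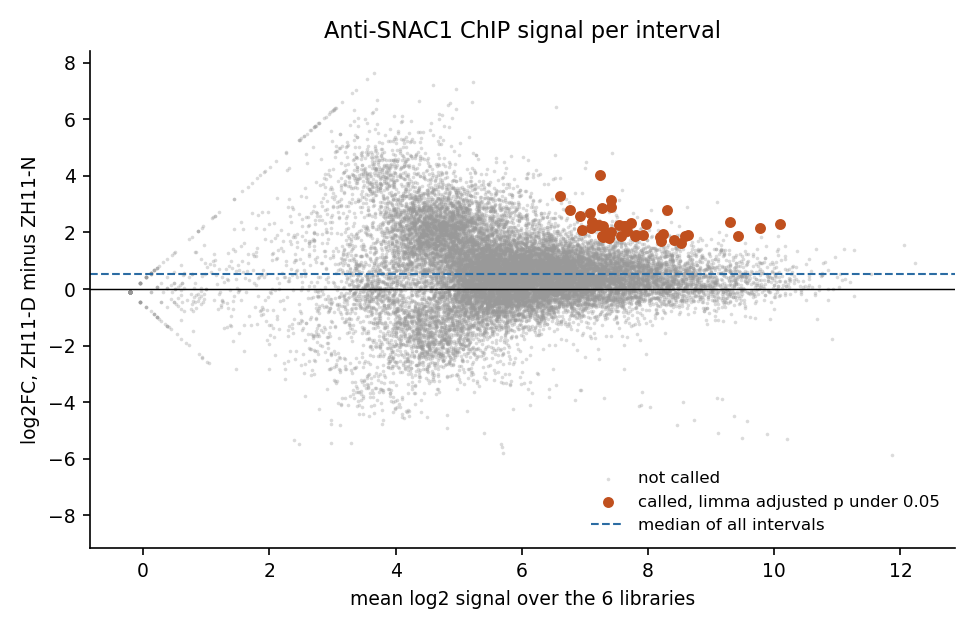
Each point is 1 of 21162 intervals, with the mean log2 signal over the 6 libraries on the x axis and the log2FC (ZH11-D minus ZH11-N) on the y axis. The 41 called intervals lie at the right and above 1.63, and the dashed line marks the median log2FC of 0.53.

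The 41 lay on 10 of the 12 chromosomes. The smallest p belonged to chr5:1750608-1754044, 3437 bp wide. Its signal was 708, 796 and 1001 in ZH11-D, against 86.9, 105 and 186 in ZH11-N. The lowest drought library was thus well above the highest normal one, and the log2FC was 2.79 ± 0.324 (standard error), with a limma adjusted p of 0.0399. With median ratio scaling the log2FC was 2.35 (limma adjusted p = 0.0329).

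Of the 12 intervals with the smallest p, the one with the tightest drought values was chr8:21050279-21055684, 5406 bp wide. Its signal was 1401, 1418 and 1472 in ZH11-D, against 240, 220 and 407 in ZH11-N. The drought libraries agreed within a few percent, the spread lay among the normal ones, and the log2FC was 2.36 (standard error 0.299). The strongest of the 41 was chr9:12740008-12749882, 9875 bp wide, with 2289, 2482 and 2551 in ZH11-D, against 518, 352 and 657 in ZH11-N. It is the only called interval among the 40 that each hold over 0.1% of a library, and its log2FC was 2.31 (standard error 0.326).

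The largest difference of the 41 was at chr2:16700830-16705112, with a log2FC of 4.04 and a standard error of 0.569. Its signal was 428, 722 and 745 in ZH11-D, against 15.0, 37.0 and 92.9 in ZH11-N. The normal libraries were low but above the floor, and on the log scale they differed among themselves more than the drought ones did. At chr1:9151804-9154348 the signal was 400, 503 and 643 in ZH11-D, against 54.2, 31.0 and 112 in ZH11-N, so the log2FC was 3.14 (standard error 0.443). That is the second largest log2FC among the 12 intervals with the smallest p.

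The narrowest called interval, chr5:13234373-13235075 with 703 bp, had 309, 379 and 275 in ZH11-D, against 69.2, 63.0 and 67.1 in ZH11-N. Here the normal libraries were nearly equal, and the log2FC was 2.26 (standard error 0.305). Chromosome 5 held 2 more of the 12 with the smallest p. At chr5:20915148-20917379 the signal was 391, 446 and 566 in ZH11-D, against 61.7, 107 and 36.7 in ZH11-N. At chr5:20057472-20059136 it was 378, 372 and 553 in ZH11-D, against 86.0, 75.0 and 117 in ZH11-N. Their log2FC values were 2.89 and 2.23.

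The other 4 of these 12 were alike in level. The interval chr3:9898732-9901080 had 331, 547 and 441 in ZH11-D, against 79.5, 89.0 and 112 in ZH11-N. The interval chr3:24817162-24819121 had 283, 459 and 549 in ZH11-D, against 36.5, 61.0 and 84.3 in ZH11-N. The log2FC was 2.22 at the first and 2.86 at the second. The interval chr6:6703070-6705237 had 266, 340 and 420 in ZH11-D, against 69.2, 68.0 and 80.4 in ZH11-N. The interval chr2:33268022-33270489 had 504, 522 and 649 in ZH11-D, against 72.0, 156 and 127 in ZH11-N. Their log2FC values were 2.22 and 2.30. With median ratio scaling, chr5:20915148-20917379 and chr2:33268022-33270489 had a limma adjusted p of 0.065, and the other 10 of the 12 stayed under 0.05.

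**Figure D2:**
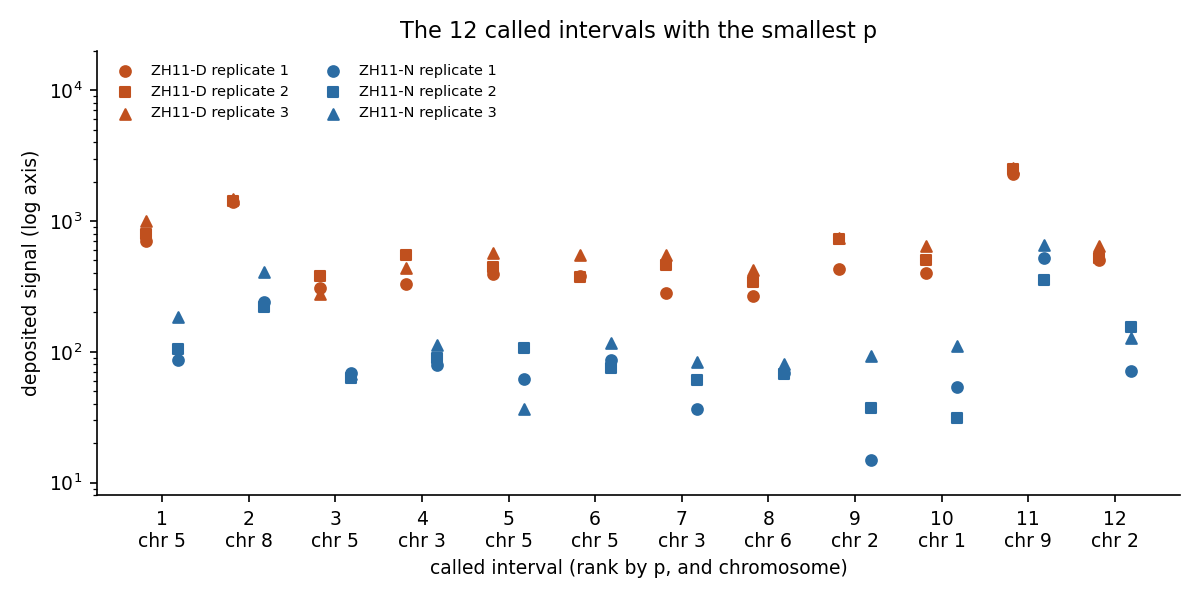
The deposited signal (log axis) of the 12 called intervals with the smallest p, ZH11-D in orange at the left of each pair and ZH11-N in blue at the right, with 1 marker shape per replicate number. No ZH11-N point reaches the ZH11-D points of its interval, for example 708 to 1001 in ZH11-D against 86.9 to 186 in ZH11-N at interval 1.

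Called intervals were wide and strong. Their median width was 2168 bp, against 835 bp for all intervals, and 21 of the 41 (51.2%) were over 2000 bp wide, against 2586 (12.2%) of all. When the intervals were split into quintiles, that is 5 groups of equal size, by mean signal, all 41 fell in the highest quintile, with a mean signal of at least 141. By width, the quintiles from narrow to wide held 0, 1, 2, 9 and 29 of them. The difference itself was not larger there. The median log2FC in the quintiles of rising mean signal was 0.44, 0.65, 0.57, 0.57 and 0.44, while the median standard error was 1.57, 1.13, 0.760, 0.508 and 0.338.

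Without a test, the libraries of the 2 conditions separated at many more intervals. At 4870 of 21162 intervals (23%) all ZH11-D libraries were above all ZH11-N libraries, and at 500 (2.36%) all were below. The intervals are peaks of the study's own ChIP libraries, so some may be listed only because 1 condition was high there. How far that choice moved the 2 counts was not tested. These counts use the deposited scaling, under which the median log2FC of all intervals was 0.53. That median was 0.092 with median ratio scaling and -0.021 with quantile normalization. Both methods level the libraries by design, so a smaller median was set in advance. Whether the general shift towards ZH11-D comes from the deposited scaling cannot be told from them. The summed signal was 2274431, 3355103 and 2677909 in ZH11-D, against 2067539, 1869015 and 2623830 in ZH11-N. The groups overlapped (exact permutation p = 0.2).

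The difference between the conditions varied with the surroundings of an interval. Intervals were divided into quintiles by the number of other intervals within 250 kb on either side, a grouping chosen after the values by chromosome had been seen. In the sparsest quintile, with 0 to 24 neighbours, the median log2FC was 1.24 and 83.7% of the values were positive. In the next quintiles it was 0.60, 0.48 and 0.35, and in the densest, with 70 to 113 neighbours, it was 0.23, with 60.7% positive. With median ratio scaling the 5 medians were 0.80, 0.16, 0.036, -0.089 and -0.21, so that the order was kept while the sign in the 2 densest quintiles was not. The order also held among intervals at or above the median of the mean signal, with 1.02, 0.59, 0.49, 0.41 and 0.27.

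Each ZH11-N library showed the gradient, and the ZH11-D libraries showed little of it. In the sparsest quintile the median log2 signal, relative to the median of the same library, was 0.044, -0.0093 and 0.14 in ZH11-D, against -0.51, -0.86 and -0.44 in ZH11-N. In the densest quintile it was -0.023, 0.028 and -0.063 in ZH11-D, against 0.24, 0.34 and 0.16 in ZH11-N. Each library here is compared with its own median, so multiplying it by 1 factor leaves these values unchanged. The share of intervals at the floor moved with it: in the sparsest quintile it was 6.92%, 2.48% and 6.12% in ZH11-D, against 14.8%, 28.9% and 6.0% in ZH11-N. In the densest quintile it was 5.91%, 0.945% and 7.56% in ZH11-D, against 3.64%, 10.5% and 1.37% in ZH11-N. ZH11-N2 had the steepest gradient, and ZH11-N1 and ZH11-N3 had it as well. The parts in this pattern of the floor values, of the unequal depth of the libraries and of the choice of intervals as peaks were not tested. Of the 41 called intervals, the quintiles from sparse to dense held 12, 13, 9, 4 and 3.

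**Figure D3:**
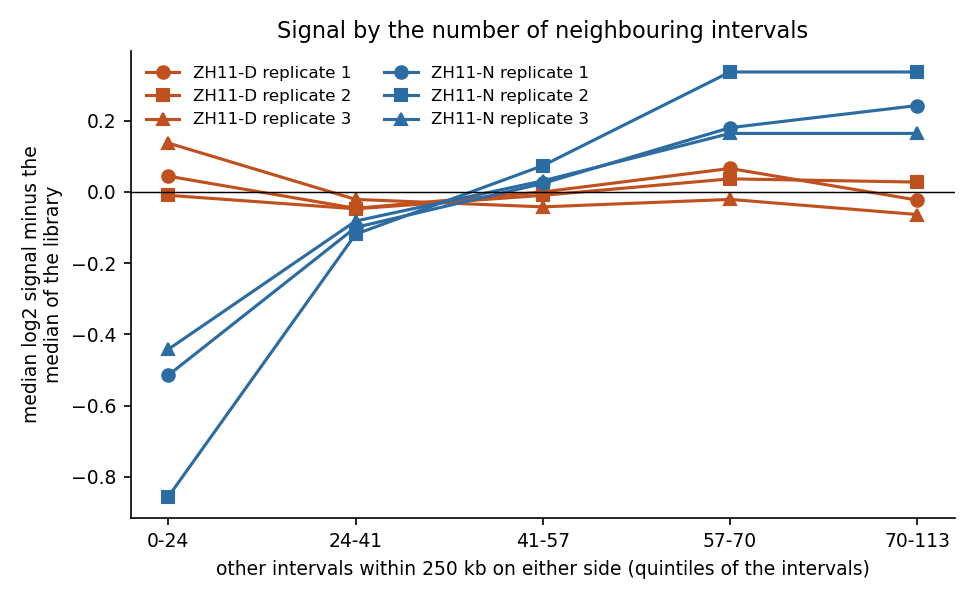
The x axis gives the quintiles of the intervals by the number of other intervals within 250 kb on either side, and the y axis the median log2 signal minus the median of the same library, with 1 line per library. The ZH11-N lines (blue) climb from between -0.86 and -0.44 to between 0.16 and 0.34, while the ZH11-D lines (orange) stay between -0.063 and 0.14.

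By chromosome, the median log2FC was lowest on chromosome 3, at 0.32, and highest on chromosome 11, at 1.15, with 0.92 on chromosome 12. Chromosome 5 had 8 called intervals among 1775 (0.451%) and chromosome 8 had 5 among 1188 (0.421%). Chromosomes 7 and 10 had 0 among 1371 and 996. Chromosome 11, with the highest median, had 2 called among 679. The 41 were scattered: within 200 kb of each other there was only 1 pair, chr1:4341078-4344174 and chr1:4448657-4450344, which lie 104 kb apart and had log2FC values of 1.84 and 2.36.

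Some intervals were above the floor under drought only. At 42 of 21162 intervals all 3 ZH11-N libraries were at the floor of 1 count and all 3 ZH11-D libraries were above it. Their median signal in ZH11-D was 51.6. The reverse held at 6 intervals, with a median signal in ZH11-N of 6.08. How far the choice of intervals as peaks moved these counts was not tested either. The floor is not read as absence of binding, since 207 intervals were at it in all 6 libraries. At chr11:26450741-26451995 the signal was 168, 143 and 231 in ZH11-D, and each ZH11-N library was at the floor. The neighbouring chr11:26452937-26454039 had 124, 160 and 179 in ZH11-D, and again each ZH11-N library was at the floor. These 2, chosen after their values were seen, stand less than 1000 bp apart and had a limma adjusted p of 0.0564 and 0.0570. They are also the 2 intervals that edgeR called, with an adjusted p of 0.0129 and 0.0172. The 2 were named for their values in the same libraries, so these p values are not separate support. Of the 42, limma called 0 (all 42 had an unadjusted p under 0.05), limma without a variance trend 33, edgeR 2 and DESeq2 36. Of the reverse 6, the same tests called 0, 2, 0 and 2. The 42 and the 6 were chosen by the separation of these same libraries. Low p values were thus favoured by the choice, and nothing is read from these calls. At chr2:29066228-29066635, one of those 6, each ZH11-D library was at the floor, against a signal of 34.6, 36.0 and 39.8 in ZH11-N. No fold change is given where a condition was at the floor throughout.

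Among intervals above the floor in all 6 libraries, the largest log2FC was at chr1:20294182-20294633, with 85.3, 49.5 and 90.5 in ZH11-D, against 1.87, 2.00 and 3.12 in ZH11-N. The libraries did not overlap, but the normal values stand for 2 to 4 counts. The log2FC was 5.00 with a standard error of 1.36, and it did not pass over all 21162 intervals (limma adjusted p = 0.118). The next 2, chr3:8441296-8442113 and chr1:25879489-25880501, had log2FC values of 4.42 and 4.40 (limma adjusted p = 0.108 and 0.161). Tested over only the 15377 intervals above the floor in all 6 libraries, these 3 had limma adjusted p values of 0.0439, 0.0197 and 0.0396. They, and those in the other direction below, were named for the most extreme log2FC among those same intervals and libraries. The p values over the 15377 are therefore not separate support. In the other direction chr3:3866277-3867259 had 13.1, 4.89 and 18.9 in ZH11-D, against 164, 71.0 and 109 in ZH11-N. Its log2FC was -3.34 with a standard error of 1.01 (limma adjusted p = 0.151, and 0.0389 over the 15377). The other 2 with the most negative values, chr1:33545786-33546713 at -3.64 and chr5:25639044-25640692 at -3.00, had overlapping libraries. In the first of them ZH11-D2 reached 964, against 27.2 and 11.9 in the other drought libraries.

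The libraries of the conditions overlapped at the intervals with the most signal. The highest mean signal was at chr12:20497884-20549108, 51225 bp wide, with 0.94, 34179 and 3654 in ZH11-D, against 5879, 111874 and 34216 in ZH11-N. One drought library was at the floor and one normal library held over 100000, and the groups overlapped (log2FC -5.85, limma adjusted p = 0.355). The other 4 of the 5 highest were chr12:20649965-20674396, chr9:4725956-4732417, chr12:20610405-20627849 and chr9:4705139-4711337. ZH11-D1 was at the floor and ZH11-N2 highest in all 5, and at chr9:4725956-4732417 ZH11-D3 was at the floor as well. Whether input reads were subtracted from the counts is not given in the sources used here. Without the 40 heaviest intervals limma called 44, all higher in ZH11-D, 40 of them among the 41.

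Another set of intervals was strong in all 6 libraries. These 5 intervals, chosen after the values were seen, had the highest signal in their lowest library. At chr7:26298846-26305302 the signal was 7330, 6018 and 8808 in ZH11-D, against 2887, 1816 and 2936 in ZH11-N. All drought libraries were higher, and the log2FC was 1.55 ± 0.534 (standard error), with a limma adjusted p of 0.198. At chr5:24321310-24330489 it was 6674, 5814 and 7580 in ZH11-D, against 5303, 2547 and 3203 in ZH11-N, a log2FC of 0.92 (limma adjusted p = 0.439). At chr5:1658723-1668930, chr7:23048362-23061236 and chr2:31644350-31654748 the log2FC was 0.53, 0.055 and -0.24. The strongest intervals of the conditions were the same in part. Of the 100 intervals with the highest median signal in ZH11-D, 52 were also among the 100 highest in ZH11-N, and of the 1000 highest, 706 (70.6%) were.

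**Figure D4:**
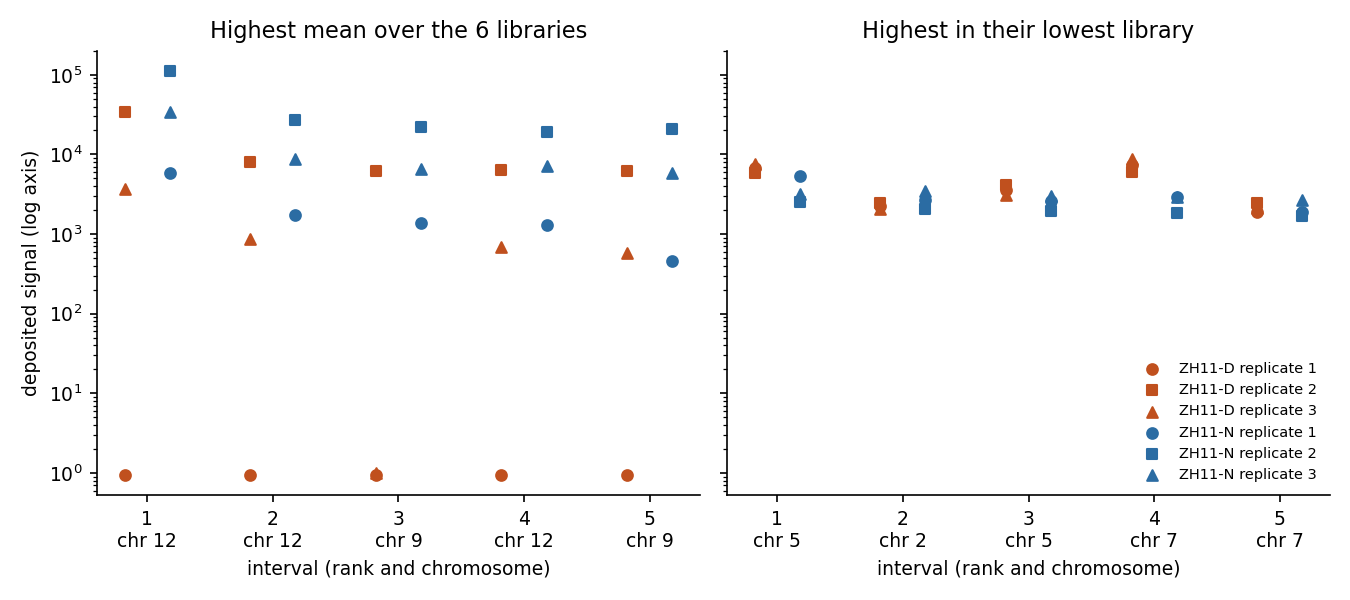
The deposited signal (log axis) at the 5 intervals with the highest mean (left) and at the 5 with the highest value in their lowest library (right), ZH11-D in orange at the left of each pair and ZH11-N in blue at the right. At the left ZH11-D1 sits at 0.94 in each interval, and at the right all 6 libraries lie between 1692 and 8808.

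Intervals with less signal under drought were called by some settings. On the deposited scale limma called 0 in this direction, and DESeq2 called 35. The 42 that were lower with median ratio scaling had log2FC values of -2.92 to -1.11 there, with a median of -1.68. On the deposited scale all 42 had negative values, -2.48 to -0.67 with a median of -1.23, and at 35 the ZH11-D libraries lay below all ZH11-N libraries. The limma adjusted p on that scale was 0.0758 to 0.312. They were wide, 1206 to 10468 bp with a median of 3130 bp. At chr10:20819346-20820885 the signal was 43.1, 81.8 and 49.8 in ZH11-D, against 221, 160 and 211 in ZH11-N. At chr4:30555478-30558756 it was 109, 180 and 140 in ZH11-D, against 362, 252 and 419 in ZH11-N. At chr8:3460406-3464152 it was 89.0, 194 and 83.6 in ZH11-D, against 322, 280 and 555 in ZH11-N. These intervals were named from those at which the conditions did not overlap, so their separation was set by the choice. The deposited log2FC was -1.80, -1.27 and -1.70 in that order, and the value after median ratio scaling was -2.24, -1.71 and -2.15. A second interval of chromosome 10, chr10:20803678-20806772, lies within 20 kb of the first, with 138, 227 and 109 in ZH11-D, against 349, 281 and 455 in ZH11-N.

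The same regions were then read in the tables that hold SNAC1-N, each of which was scaled separately. All 41 called intervals overlapped an interval of the table of ZH11-D and SNAC1-N. That comparison shares the ZH11-D libraries in which the 41 were high, so a positive value there was favoured by the choice and nothing is read from it. The log2FC (ZH11-D minus SNAC1-N) was positive at all 41, at 0.84 to 6.63 with a median of 2.21, while the median of all 21263 intervals there was 0.19. At 6 of the 41 a SNAC1-N library was at the floor, SNAC1-N2 at 5 and SNAC1-N3 at 2 of them, and these gave values of 3.56 to 6.63. At the other 35 the values were 0.84 to 3.87 with a median of 2.00. The overlap with the table of SNAC1-N and ZH11-N was 25 of 41. That table shares the ZH11-N libraries, in which the 41 were low, so a positive value was favoured there as well. There the log2FC (SNAC1-N minus ZH11-N) was -3.95 to 1.72 with a median of 0.21, and 14 of the 25 were positive. Without the 3 that had a library at the floor the range was -1.66 to 1.35 with a median of 0.39, and 13 of 22 were positive. Over all 16886 intervals of that table the median was 0.26 and 66.8% were positive.

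The SNAC1 transcript was at 430 ± 101 FPKM in ZH11-D and 847 ± 129 FPKM in SNAC1-N (SD, n = 3 each). At chr5:1750608-1754044, in the table with SNAC1-N, the signal was 401, 451 and 568 in ZH11-D, against 112, 53.0 and 96.5 in SNAC1-N. At chr8:21050279-21055684 it was 795, 804 and 835 in ZH11-D, against 187, 158 and 243 in SNAC1-N. At both, the SNAC1-N libraries lay below all ZH11-D libraries, with log2FC values of 2.50 and 2.07. The median over all 21263 intervals was 0.19. The intervals named here were chosen for their high signal in the same ZH11-D libraries, so nothing is read from this order. The relation of the transcript to the signal was not tested. At chr5:13234373-13235075 the signal was 175, 215 and 156 in ZH11-D, against 12.1, 1.00 and 0.50 in SNAC1-N, where the last 2 values are the floor. SNAC1-N was not grown under drought for ChIP, so genotype and watering differ together in this comparison and cannot be told apart.

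**Figure D5:**
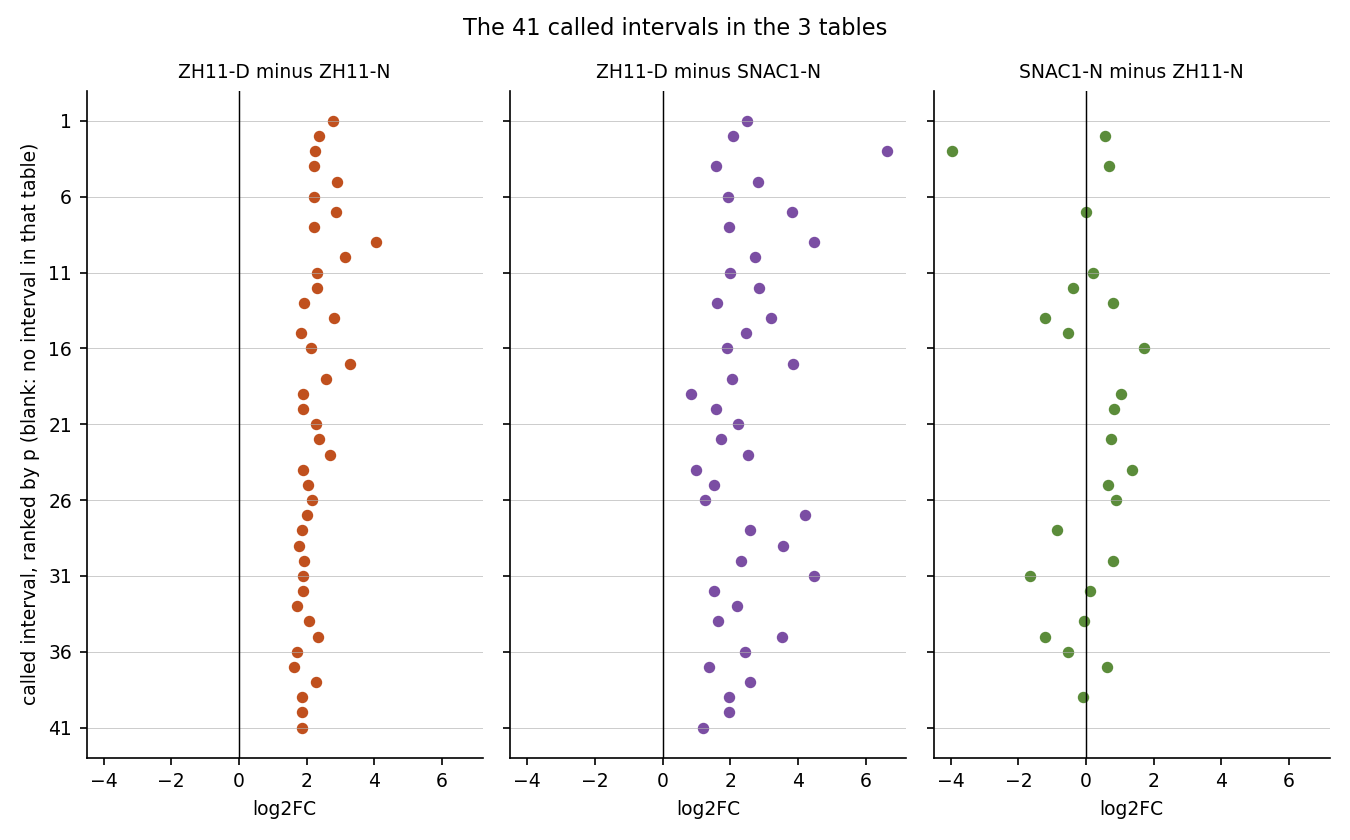
The log2FC of the 41 called intervals, ranked by p from top to bottom, in the table of ZH11-D and ZH11-N (left), of ZH11-D and SNAC1-N (middle) and of SNAC1-N and ZH11-N (right, 25 intervals). The points lie between 1.63 and 4.04 at the left, between 0.84 and 6.63 in the middle and on both sides of 0 at the right.

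The 42 intervals lower after median ratio scaling were also read there. In the table of ZH11-D and SNAC1-N, 39 of them had an overlapping interval, and the log2FC was negative at all 39, with a median of -0.90. In the table of SNAC1-N and ZH11-N all 42 had one, and 4 of 42 values were positive, with a median of -0.32. Over all intervals of these tables the median was 0.19 and 0.26, in that order. The 42 were chosen by the values of the same ZH11-D and ZH11-N libraries. Negative values were thus favoured in both tables, and nothing is read from them. The values are given side by side only.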

How the data were processed

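For ChIP-Seq the authors used Bowtie2 with the MSU 7.0 genome and MACS2 for peaks, and their processing notes also name DiffBind and DESeq2, with no versions. Each deposited signal value equals a whole count times 1 value per library: 100% of the values lay within 0.006 signal units, plus 1e-05 of the value, of such a product. In ZH11-N2 the deposited value is the count itself. Whether the counts are net of input is not given in the sources used here. Deposited columns of mean signals, folds, p-values and FDRs from the authors' own comparisons were not used, and the number of unused per-sample columns is 0. The deposited FPKM values come from RNA reads that the authors processed with HISAT2 and StringTie, as their processing notes list.

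Here limma 3.58.1 (R 4.3.3) was run on log2 of the signal of the 6 libraries, two-sided, with a variance trend and no replicate block, and with Benjamini-Hochberg adjustment over all intervals. RNA was fitted by limma on log2(FPKM + 0.5) for features with a mean of at least 1, over all 12 RNA libraries. Values per library were compared by exact two-sided permutation tests. edgeR 4.0.16 and DESeq2 1.42.0 on the recovered counts were alternatives, and they hold only approximately if input was subtracted. DESeq2 gave no adjusted p for some intervals, which were left out of its counts. Overlaps of at least 1 bp were found with GenomicRanges 1.54.1. Counting error is the least that limits a value, and no interval for it is given because the counts may be net of input.

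Named intervals are up to 12 called per direction with the smallest p and no overlap of the conditions, the 5 with the highest mean signal, and the 3 with the largest log2FC in each direction above the floor in all 6 libraries. Others were chosen after their values were seen, those lower after median ratio scaling also for having no overlap of the conditions. The intervals and lists were chosen with earlier results of these data known. No genome or annotation of MSU 7.0 was used, so genes beside the intervals, their transcripts, motifs and sequences were not analysed here.

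On simulated data for ZH11-D against ZH11-N (21162 intervals, 50 changed at each size), limma recovered 1, 7, 15 and 25 of the intervals changed by a log2 of 1, 2, 3 and 4, with 2 others called. edgeR recovered 1, 4, 22 and 32 with 4 others, and DESeq2 3, 15, 39 and 41 with 75 others. The simulated counts were negative binomial, with spreads per interval that edgeR estimated on these data. Changes were set only at intervals with a mean signal of at least 20. No library was made to stand apart as ZH11-N2 did, and no input was subtracted. The order of the tools therefore need not hold for the real libraries.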

Additional observations from a re-analysis of the deposited data

How the results depend on the processing

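The number of calls, 41 (41 higher, 0 lower in ZH11-D, limma), moved by over 1.5 times in 17 of 22 alternatives. The median log2FC of 0.53 moved by more than the spread of the library medians in 7 and by less in 15. Rescaling gave 107 calls (65 higher, 42 lower) and a median of 0.092 with the median ratio, 348 (249, 99) and -0.021 with quantile normalization, and 95 (54, 41) and 0.057 with TMM. Such scalings level the libraries by design, so these smaller medians were set in advance. Adding 10 to the signal gave 295 (288, 7). Testing only intervals above the floor in all 6 libraries gave 430 (416, 14), and a mean signal of at least 20 gave 24 (24, 0). limma without a trend gave 52 (49, 3). edgeR gave 2 (2, 0) with the deposited factors and 52 (34, 18) with TMM, where the median was -0.023. DESeq2 gave 958 (923, 35) with the deposited factors and 918 (494, 424) with its own, where the median was -0.052. Leaving out each library in turn gave 0 to 395 calls, 0 to 395 higher and 0 to 1 lower, with medians of 0.21 to 0.74. Without ZH11-N2 and with median ratio scaling, a setting chosen after seeing the data, there were 69 calls (53, 16) and a median of -0.069. Without a trend and with median ratio scaling, also chosen then, there were 45 (42, 3) and a median of 0.092. The cause of these differences was not tested.

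The 41 were all among the calls of DESeq2 with the deposited factors and of limma with 10 added, with the floor filter or with the replicate block, and 0 of them were among those of edgeR with the deposited factors or of limma without a trend. With the replicate block 541 intervals were called (485 higher, 56 lower). At the 5 intervals with the highest mean signal, which limma did not call without the block, the block gave adjusted p values of 4.07e-07 to 0.00193, lower in ZH11-D. ZH11-D1 was at the floor at all 5. The log2FC there, fitted without the block, was -8.35 to -4.67 with ZH11-D1 and -6.22 to -1.01 without it. Whether same-numbered libraries form pairs is not given in the sources used here. Over all intervals the deviations of same-numbered libraries correlated at 0.0166, -0.0730 and -0.0291. These values cannot decide it, since libraries of different numbers were not compared in this way. For the SNAC1 transcript each of the 11 alternatives, the replicate block included, kept direction and call. Counting overlaps from 0.5 of the shorter interval kept both overlap counts within 1.5 times. The transcripts of genes beside called intervals, and the promoter length for them, were not run, since no annotation of MSU 7.0 was used. In the lowest quintile by signal the median standard error was 1.57 on the log2 scale.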

Other observations

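The log2FC (ZH11-D minus ZH11-N) of adjacent intervals had a Pearson r of 0.352 over 4374 pairs less than 1 kb apart. It was 0.242 over 10018 pairs 1 to 10 kb apart, 0.166 over 6126 pairs 10 to 100 kb apart and 0.056 over 630 pairs farther apart. The share of pairs on the same side of the median log2FC was 65.2%, 58.3%, 56.8% and 70.5% in the same order, so this measure was highest for the farthest pairs. These values are across intervals, which share the 6 libraries and are not replicates, and no test was made of them.

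At 2198 intervals ZH11-N2 alone was at the floor of 1 count, and at 207 intervals all 6 libraries were.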
